A study of Mus musculus with 8 samples.

Results

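The proteasome subunit genes were followed from pachytene spermatocytes (PS), cells in mid meiotic prophase, to round spermatids (RS), the haploid cells that meiosis yields. Members were taken by gene symbol: all genes of the RNA-seq tables named Psma, Psmb, Psmc, Psmd, Psme or Psmf with a number, without Psmc3ip, which is not a subunit. This gave 44 of 23343 genes. The members fell into 6 roles, with 8 core alpha genes, 7 constitutive core beta genes, 4 inducible or thymic beta genes, 6 ATPase genes, 14 regulatory genes that are not ATPases, and 5 activator and inhibitor genes.

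RNA was measured in PS and RS of adult Rnf8;Scml2-dKO mice, which lack both the ubiquitin ligase RNF8 and the Polycomb-related protein SCML2, with 2 libraries of each stage. Acetylation of histone H3 at lysine 27 (H3K27ac), a mark of active promoters and enhancers, was mapped by ChIPmentation (chromatin immunoprecipitation with transposase-made libraries) in PS and RS of adult wild-type mice, also with 2 libraries of each stage. All 8 samples were C57BL/6 testis cells separated by gravity sedimentation through bovine serum albumin, and the RNA fractions were prepared at a scale that a single double-knockout male allows. Every RNA library therefore carried both gene losses and every H3K27ac library carried neither, so RNA and H3K27ac are given side by side, no wild-type RNA was analysed here, and a difference between the assays cannot be told apart from the genotype.

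The proteasome degrades proteins that carry ubiquitin chains. Its core is a barrel of alpha rings, which gate entry, around beta rings, which hold the proteolytic sites, and a regulatory particle of ATPases and other subunits binds ubiquitinated substrates, removes the chains and unfolds the protein. Activators and inhibitors bind the ends of the core in place of the regulatory particle. Male germ cells carry variants of this machine: PSMA8 takes the place of PSMA7 in the alpha ring in meiotic cells, and PSME4 is an activator tied to acetylated histones and to histone loss in spermatids.

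The 4 RNA libraries held between 9655405 and 12289694 reads on genes. Reads remained on Rnf8 (93 and 110 in PS, 61 and 50 in RS) and on Scml2 (40 and 92 in PS, 44 and 98 in RS), and since the deleted parts are not given in the sources used here these reads do not check the genotype. Most germ cell markers followed the stage labels. All 10 spermatid genes were called higher in RS, against 30.4% of all genes tested. Of 9 spermatocyte genes 6 were called lower, against 27.6% of all genes, and 3 (Sycp1, Hormad2 and Ccna1) were not called. Ccna1 stood at 76.7 and 108 RPKM (reads scaled to transcript length and to library size) in PS and at 120 and 113 in RS. Sycp1 overlapped between stages (62.2 and 26.1 in PS, 28.0 and 37.4 in RS). Sycp3, called lower, still stood at 47.5 and 63.4 RPKM in RS, and Prm1, a protamine gene, at 104 and 166 in PS. All 6 Leydig cell genes were lower in RS (Insl3 at 593 and 450 RPKM in PS, 60.0 and 35.8 in RS), and all 7 macrophage and leukocyte genes were higher in RS. The summed level of the Leydig list ran from 547 to 729 RPKM in PS and from 42.6 to 68.3 in RS, and that of the leukocyte list from 3.56 to 3.97 in PS and from 50.2 to 52.4 in RS. Among 7 Sertoli cell genes, 2 were called higher, none lower and 3 were not tested. Of 6 spermatogonial genes 3 were called higher and of 4 peritubular genes 1 was. The part of these other cells in the member results was not tested, and in bulk fractions fewer cells of a type and less RNA per cell cannot be told apart.

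Upstream sequences are shown for the 3 members whose RNA rose most, because H3K27ac at their starts is described further on and the 2 starts of Psma6 behaved in opposite ways. Each is the 250 bases before an annotated start in RefSeq (GRCm38.p6), read 5′ to 3′ on the strand of the gene, with every CCAAT box (CCAAT, or ATTGG where the box lies on the other strand) in capitals.
Psma6, upstream start, chr12:55383972-55384221, plus strand: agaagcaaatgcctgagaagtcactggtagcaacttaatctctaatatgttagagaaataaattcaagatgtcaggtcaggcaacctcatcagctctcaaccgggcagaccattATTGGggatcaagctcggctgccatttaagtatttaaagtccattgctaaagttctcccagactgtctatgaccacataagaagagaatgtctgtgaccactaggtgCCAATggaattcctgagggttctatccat
Psma6, downstream start, chr12:55398575-55398824, plus strand: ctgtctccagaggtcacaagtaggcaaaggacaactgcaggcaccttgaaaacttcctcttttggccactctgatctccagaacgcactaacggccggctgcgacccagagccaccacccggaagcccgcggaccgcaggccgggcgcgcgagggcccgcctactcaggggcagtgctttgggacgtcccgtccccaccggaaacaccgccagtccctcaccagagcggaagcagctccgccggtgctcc
Psmf1, chr2:151741311-151741560, minus strand: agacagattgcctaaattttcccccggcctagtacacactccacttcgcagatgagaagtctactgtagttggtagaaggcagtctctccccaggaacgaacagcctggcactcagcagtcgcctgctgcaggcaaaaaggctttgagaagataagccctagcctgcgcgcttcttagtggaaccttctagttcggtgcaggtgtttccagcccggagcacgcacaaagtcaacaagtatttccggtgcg
Psmd10, chrX:140956712-140956961, minus strand: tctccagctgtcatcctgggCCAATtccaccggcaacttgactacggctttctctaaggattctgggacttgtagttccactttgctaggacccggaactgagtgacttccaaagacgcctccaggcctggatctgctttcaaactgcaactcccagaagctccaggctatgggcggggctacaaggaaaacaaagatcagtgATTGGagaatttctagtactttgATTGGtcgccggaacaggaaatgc
The upstream stretch of Psma6 held 2 CCAAT boxes, 2 CpG dinucleotides and 42.8% G and C, whereas the downstream stretch held no CCAAT box, 20 CpG dinucleotides and 65.6% G and C. Psmd10 held 3 CCAAT boxes and Psmf1 held 0. RefSeq promoters were matched for 37 of the 44 members, with 40 starts among them. A CCAAT box was found in 14 of the 40 (35.0%) and in 33.9% of all 32851 promoters of that length. The core of the antioxidant response element, TGACNNNGC, was found in 5 of the 40 (12.5%), those of Psmb5, Psmb6, Psmc6, Psmd9 and Psmd12, against 10.2% of all promoters. The TATA box TATAAA was in 4 of the 40 (10.0%) against 12.4%, and the cAMP response element TGACGTCA was in 0 of the 40 against 1.55%. Both strands were searched, none of these motifs contains another, and a match is a description of letters only.

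Most proteasome subunit RNAs were lower in RS than in PS, but a few rose steeply. As a share of the summed RPKM of all genes, the 44 members made up 0.918% and 0.843% in PS and 0.702% and 0.681% in RS. Of the 41 members with at least 10 reads in at least 2 libraries, 14 were called lower in RS (edgeR quasi-likelihood test, Benjamini-Hochberg adjusted p below 0.05 and at least 1.5-fold), where 27.6% of all genes tested were lower. Only 4 members, Psma6, Psmd10, Psmf1 and Psme4, were called higher, where 30.4% of all genes tested were higher. These are 34.1% and 9.76% of the members tested, so that the share of falls was near the background and the share of rises was under it.

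With no fold threshold, 25 of 41 members were lower at an adjusted p below 0.05, against 32.1% of all genes, and 5 (12.2%) were higher, against 32.5% of all genes. In 30 of the 41, both RS libraries lay below both PS libraries in RPKM, against 42.7% of all genes tested. The median log2 fold change of the members was −0.54, beside 0.01 for all genes tested. The members tested held between 24 and 14496 reads in a library, and a call at any fold is easier to reach with many reads.

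**Figure D1:**
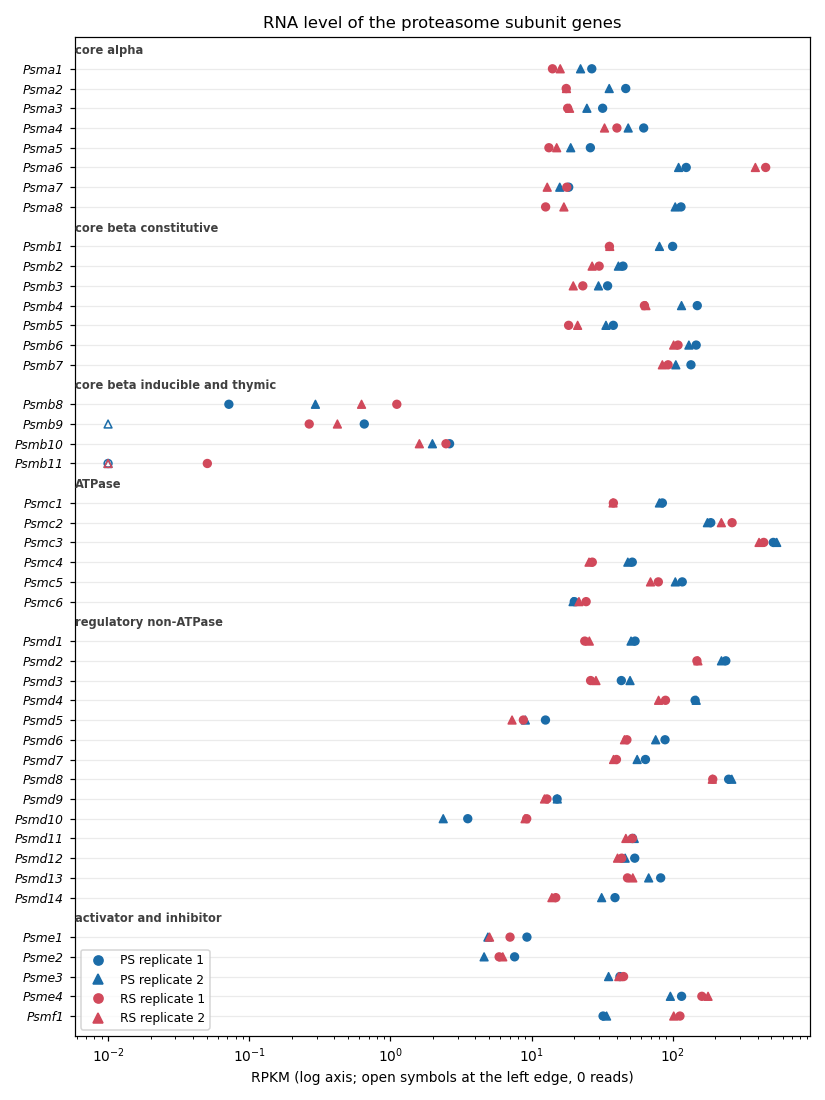
RNA level of the 44 proteasome subunit genes in each library, as RPKM on a log axis, with PS in blue and RS in red and open symbols at the left edge for libraries with 0 reads. Psma6 and Psmf1 stand to the right in RS, Psma8 falls from over 100 RPKM in PS to 12.6 and 16.9 in RS, and the inducible and thymic beta genes lie below 3 RPKM throughout.

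Among members past the count filter, the largest fall and, over all 4 libraries, the largest rise were both in the alpha ring. Psma8, the meiotic alternative to Psma7, stood at 114 and 104 RPKM in PS and at 12.6 and 16.9 in RS. The stages were far apart, and Psma8 was 7.21-fold lower in RS (log2 fold change −2.85 ± 0.17 SE, edgeR adjusted p = 4.6e-06). Psma7, its counterpart in other tissues, stood at 18.3 and 15.8 RPKM in PS and at 17.8 and 12.9 in RS, so the stages overlapped (log2 fold change −0.11 ± 0.22, adjusted p = 0.68). Psma8 RPKM therefore made up 86.2% and 86.8% of the sum of both genes in PS and 41.5% and 56.8% in RS.

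Psma6, a constitutive alpha subunit, moved the other way. It stood at 125 and 110 RPKM in PS and at 456 and 385 in RS, with both RS libraries above both PS libraries, a 3.69-fold rise (log2 fold change 1.88 ± 0.14, edgeR adjusted p = 9.7e-06). It took 27.6% and 29.0% of the summed RPKM of the 8 alpha genes in PS and 77.3% and 74.8% in RS. Subunits that sit at equal numbers in the ring thus differed widely in RPKM. Among Psma1 to Psma7 the highest RPKM was 6.80 and 6.95 times the lowest in PS. In RS it was 34.3 and 29.8 times the lowest. Only uniquely aligned reads were counted, so near-identical copies of a gene leave its level uncertain, and every ratio or share between genes carries this limit.

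Of the other alpha genes, Psma2 fell 2.25-fold, from 46.5 and 35.5 RPKM to 17.6 and 17.7 (log2 fold change −1.17 ± 0.18, edgeR adjusted p = 0.00059). Psma1 fell by 0.66 and Psma5 by 0.63 on the log2 scale. Both of these calls were lost without the first PS library, without the first RS library and without the second RS library, where the log2 fold changes nearest to 0 were −0.49 for Psma1 and −0.42 for Psma5. Psma3 (−0.58) and Psma4 (−0.55) passed the p threshold but not the fold. Psma4 overlaps the antisense gene AY074887 near its start and Psma3 is overlapped by the antisense gene 3110056K07Rik, and the library kit does not mark strand. AY074887 held at most 2 reads in a library, and 3110056K07Rik held between 55 and 75.

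All 7 constitutive beta genes were lower in RS at an adjusted p below 0.05, against 32.1% of all genes tested. Each had both RS libraries below both PS libraries, against 42.7% of all genes. Their summed RPKM went from 647 and 536 in PS to 372 and 354 in RS. Psmb1, Psmb4 and Psmb5 were called lower, and the other 4 did not reach 1.5-fold. Psmb1, a structural beta subunit, went from 99.9 and 80.6 RPKM to 35.6 and 35.8 (2.45-fold lower, log2 fold change −1.29 ± 0.15, edgeR adjusted p = 0.00011). Psmb4, also structural, went from 149 and 115 RPKM to 63.0 and 64.6 (log2 fold change −1.01 ± 0.15).

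The log2 fold changes of the catalytic beta genes were not tested against each other. Psmb5, which holds the chymotrypsin-like site, went from 37.9 and 33.7 RPKM to 18.3 and 21.2 (log2 fold change −0.82 ± 0.17, edgeR adjusted p = 0.0031), and this call was lost without the first RS library (−0.63, adjusted p = 0.070). Psmb6, which holds the caspase-like site and was the most abundant beta gene by its mean RPKM, went from 147 and 130 RPKM to 109 and 102 (log2 fold change −0.35 ± 0.13). Psmb7, which holds the trypsin-like site, changed by −0.39 ± 0.15. Psmb3, the least abundant of the 7, went from 34.6 and 29.8 RPKM to 23.1 and 19.7 (log2 fold change −0.54 ± 0.18).

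The inducible beta subunits, which replace Psmb5, Psmb6 and Psmb7 in immune cells and after interferon, were barely detected. Psmb8 held 1 and 4 reads in PS and 19 and 9 in RS, Psmb9 held 6 and 0 in PS and 3 and 4 in RS, and neither passed the count filter. With no filter on low counts Psmb8 was called higher in RS (log2 fold change 2.25, edgeR adjusted p = 0.018). The leukocyte list rose in the same libraries: Cd74, the invariant chain of antigen presentation, stood at 0.649 and 0.956 RPKM in PS and at 8.94 and 12.4 in RS, and Lyz2, lysozyme, at 1.99 and 1.02 in PS and 30.2 and 25.7 in RS. The part of leukocyte RNA in the Psmb8 reads was not tested.

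Psmb10 stood at 2.63 and 1.98 RPKM in PS and at 2.48 and 1.60 in RS, overlapping between stages (log2 fold change −0.12 ± 0.36, edgeR adjusted p = 0.78). Psmb11, the thymic catalytic subunit, held 0 reads in 3 libraries and 3 in the first RS library. Psmb8, Psmb9 and Psmb10 together made up 1.04% and 0.840% of the RPKM of the 6 catalytic genes in PS and 1.72% and 1.26% in RS.

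Within the regulatory particle, the 6 ATPases that form its ring were unequal in RPKM. Psmc3 was the most abundant proteasome RNA in PS, at 516 and 545 RPKM, and stood at 441 and 409 in RS (log2 fold change −0.28 ± 0.12, edgeR adjusted p = 0.061). Psmc6 was the least abundant ATPase gene, at 20.1 and 19.7 RPKM in PS and 24.4 and 21.7 in RS (log2 fold change 0.25 ± 0.16, adjusted p = 0.19). The highest ATPase RPKM was 25.7 and 27.7 times the lowest in PS and 18.1 and 18.9 times the lowest in RS.

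Psmc1 and Psmc4 were called lower among the ATPases. Psmc1 went from 84.5 and 80.5 RPKM to 38.0 and 37.8 (2.12-fold lower, log2 fold change −1.08 ± 0.13, edgeR adjusted p = 0.00012), and Psmc4 changed by −0.89 ± 0.14. Psmc2 was higher at the p threshold only (log2 fold change 0.46 ± 0.13, adjusted p = 0.013) and was called without the second RS library, at 0.69. Psmc5 changed by −0.53 ± 0.13.

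Of the 14 regulatory genes that are not ATPases, 5 were called lower, 1 higher and 8 were not called. All genes tested gave 27.6% lower and 30.4% higher. In 13 of the 14, both RS libraries lay below both PS libraries, against 42.7% of all genes. Psmd14, the deubiquitinase that removes ubiquitin chains at the entry to the core, went from 39.0 and 31.4 RPKM to 14.8 and 13.9 (2.37-fold lower, log2 fold change −1.25 ± 0.17, edgeR adjusted p = 0.00025). Psmd1, a large scaffold and docking subunit, changed by −1.04 ± 0.12, and Psmd2, the other one, by −0.58 ± 0.11, just under the fold threshold. Psmd6 (−0.78), Psmd4 (−0.75), a ubiquitin receptor, and Psmd3 (−0.73) were also called lower. The Psmd4 call was lost without the second RS library (−0.56), and the Psmd3 call without the second PS library or the first RS library (up to −0.57). Psmd8, the most abundant of these genes, went from 249 and 262 RPKM to 192 and 191 (log2 fold change −0.38 ± 0.11).

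Psmd10 was the exception in this group. It encodes gankyrin, an assembly chaperone of the ATPase ring. It is the only member on the X chromosome, which is silenced in PS, and the other 43 are autosomal. The paper reports that escape genes, sex-linked genes activated in RS, were largely lower in RS of this double knockout. The part of X silencing or of the 2 gene losses in the Psmd10 values was not tested. Psmd10 held 56 and 36 reads in PS and 188 and 153 in RS, that is 3.53 and 2.37 RPKM against 9.24 and 8.99. Both RS libraries lay above both PS libraries, a 3.33-fold rise (log2 fold change 1.74 ± 0.25, edgeR adjusted p = 0.00044). It remained the least abundant gene of the group in PS. The other chaperones of that ring, Psmd5 (−0.38 ± 0.21, adjusted p = 0.14) and Psmd9 (−0.23 ± 0.15, adjusted p = 0.21), were not called.

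Among activators and inhibitors 2 of 5 were called higher, against 30.4% of all genes tested. None was called lower, against 27.6% of all genes. Psme4, the activator tied to acetylated histones, stood at 116 and 96.2 RPKM in PS and at 161 and 178 in RS (1.65-fold higher, log2 fold change 0.72 ± 0.12, edgeR adjusted p = 0.0010). It was the most abundant activator in each library, with 66.2% and 68.3% of the summed RPKM of Psme1 to Psme4 in PS and 73.6% and 77.1% in RS. Psme3, the nuclear activator, stood at 42.3 and 35.1 RPKM in PS and 44.9 and 41.5 in RS and was not called (0.20 ± 0.14, adjusted p = 0.22).

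Psme1 and Psme2, the interferon-responsive activator pair, were low and overlapped between stages. Psme1 stood at 9.27 and 4.91 RPKM in PS and 7.04 and 5.04 in RS, and Psme2 at 7.58 and 4.61 in PS and 5.89 and 6.25 in RS. Psmf1, which encodes the inhibitor and transport adaptor PI31, rose from 32.1 and 34.0 RPKM to 113 and 102, with no overlap (3.33-fold higher, log2 fold change 1.74 ± 0.13, edgeR adjusted p = 1.0e-05). The 4 rises were called under each of the 11 alternative RNA fits.

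**Figure D2:**
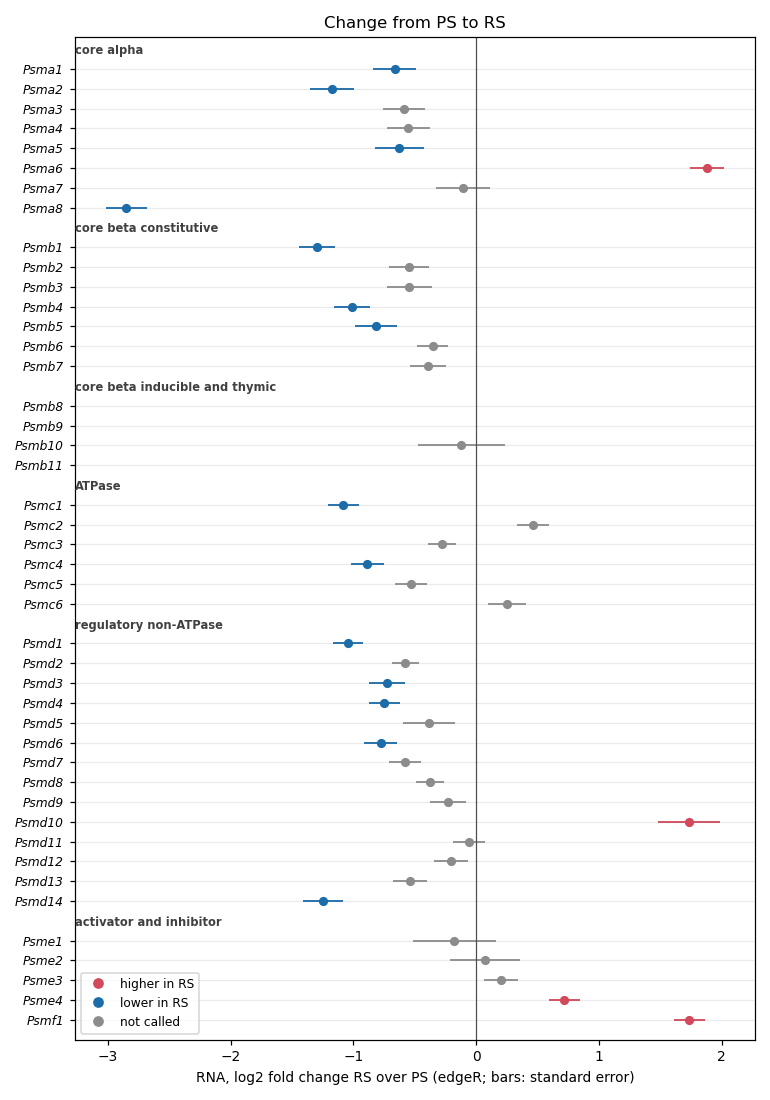
Log2 fold change of RS over PS for the 41 proteasome subunit genes tested, with standard errors from edgeR, grouped by role and coloured by call. Points to the left are lower in RS: 33 of the 41 lie left of 0, Psma8 farthest, while Psma6, Psmd10, Psmf1 and Psme4 lie to the right.

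Genes around the proteasome were read from a list of 32 genes that build, accompany, feed or regulate it. Of the 32, 9 (28.1%) were called higher and 10 (31.2%) lower in RS, shares near the 30.4% and 27.6% of all genes tested. Of 6 assembly factors, 4 were lower and none was higher. Pomp, which matures the beta subunits, went from 68.5 and 58.7 RPKM to 21.7 and 20.5 (2.93-fold lower, log2 fold change −1.55 ± 0.17, edgeR adjusted p = 7.4e-05), and Psmg3, a chaperone of alpha ring assembly, from 6.80 and 5.37 RPKM to 1.62 and 1.72 (log2 fold change −1.82 ± 0.32). Psmg1 (−1.31) and Psmg4 (−1.17) were lower too, whereas Psmg2, the partner of Psmg1, changed by −0.23 ± 0.16. None of 7 genes for proteins that associate with the particle was called.

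Shuttle factors, which carry ubiquitinated proteins to the proteasome, had 3 of 9 genes called higher and 3 lower, beside 30.4% and 27.6% of all genes. Among the rises, Ubqlnl went from 4.58 and 6.54 RPKM to 132 and 129 (24.1-fold, log2 fold change 4.59 ± 0.20), and Ddi1 from 9.41 and 14.2 to 110 and 103 (9.23-fold, log2 fold change 3.21 ± 0.21). These are testis-biased relatives of broadly expressed shuttles, of which Ddi2 (−0.77) and Ubqln4 (−0.77) fell. Ubqln1 (0.34 ± 0.12, edgeR adjusted p = 0.036) was higher at the p threshold only, and Ubqln2 (−0.13) was not called.

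Among genes that supply and activate ubiquitin, 4 of 6 were called higher and 1 lower, beside 30.4% and 27.6% of all genes. Rps27a, which encodes ubiquitin fused to a ribosomal protein, went from 230 and 192 RPKM to 59.9 and 56.0 (3.53-fold lower, log2 fold change −1.82 ± 0.14, edgeR adjusted p = 1.3e-05). Only uniquely aligned reads were counted, so that near-identical copies of such a gene leave its level uncertain. The activating enzymes Uba1 (1.23), on the X chromosome, and Uba1y (1.38), on the Y chromosome, rose. Uba6 (0.28), which is autosomal, was not called. The part of the gene losses in the values of the sex-linked Uba1 and Uba1y was not tested.

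Of 4 genes for regulators of proteasome gene transcription and their processing, 2 were called higher and 2 lower, beside 30.4% and 27.6% of all genes. Nfe2l1, the factor that raises proteasome genes when degradation falls short, was 1.87-fold lower in RS (log2 fold change −0.90 ± 0.14, edgeR adjusted p = 0.00063), and Vcp, the ATPase that extracts it from the membrane, changed by −1.16 ± 0.12. Ngly1, which removes its sugars, rose by 1.49, and Nfe2l2, a related factor of the oxidative stress response, rose by 1.66 from 2.49 and 1.82 RPKM to 6.86 and 6.40. What the list did gives no cause for any member.

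H3K27ac was read at the start of each member as the fold enrichment of the strongest interval within 2 kb. An interval was present in both PS libraries for 42 of 44 members and in both RS libraries for 42 of 44. Psmb11 had none in any library, and Psmb8 had 1 only in the first RS library, at a fold enrichment of 3.66. The median fold enrichment over members with an interval was 17.5 and 19.7 in PS and 16.7 and 11.9 in RS, beside 15.2, 16.4, 13.0 and 11.0 for all genes with an interval. Between 51.1% and 59.1% of all genes had an interval in a library. At 10 members (Psma2, Psma4, Psma7, Psmb1, Psmb5, Psmb9, Psmc2, Psmc5, Psmd13 and Psme2) another gene starts within 2 kb, and such an interval cannot be assigned to either gene.

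Acetylation differed between stages at a minority of members. On log2(1 + fold enrichment), with each library centred on its median over genes, 7 of 42 members were called lower in RS (limma adjusted p below 0.05; 16.7%), where 21.0% of all 11394 genes tested were lower. Another 3 of 42 (7.14%) were called higher, where 23.1% of all genes were. Without centring, the median over all genes was −0.39 and the members gave 12 lower and 0 higher, so directions are relative to the median gene. The count of lower members depended on single libraries: it was 3 without the first PS library, 3 without the second PS library and 4 without the second RS library.

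**Figure D3:**
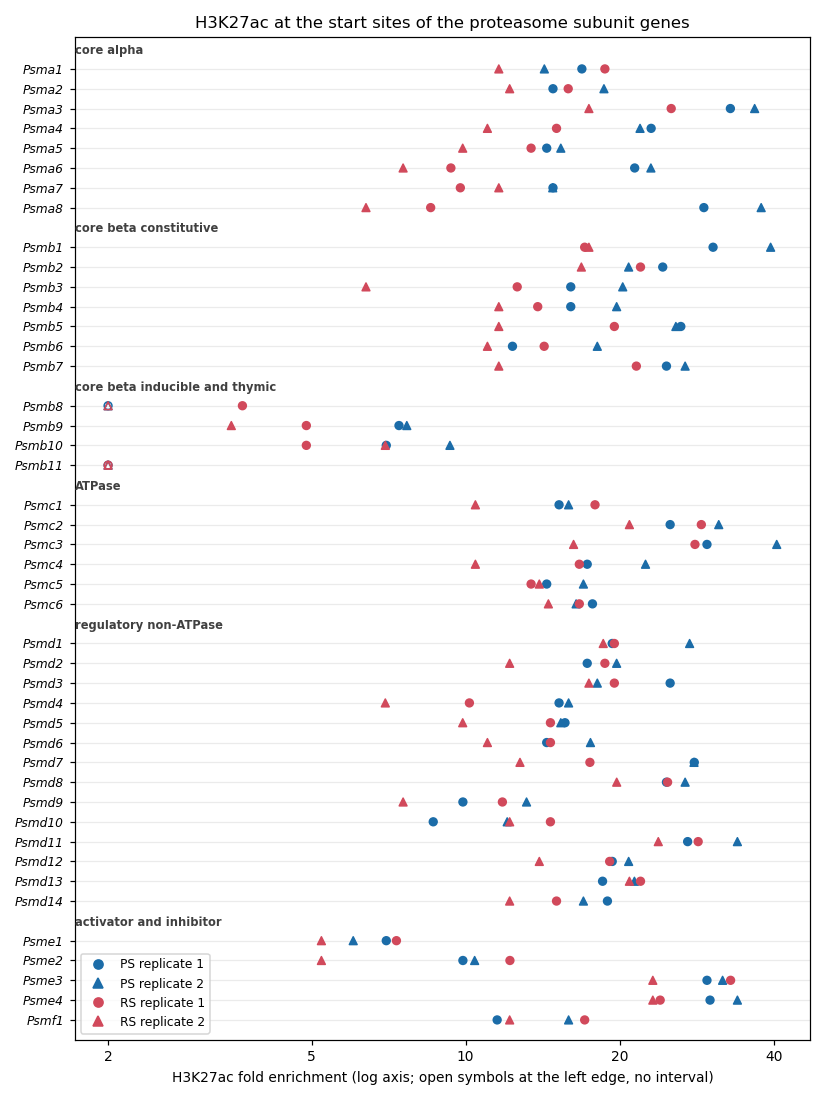
H3K27ac fold enrichment of the strongest interval within 2 kb of the start of each proteasome subunit gene, on a log axis, with PS in blue and RS in red and open symbols at the left edge for libraries with no interval. Psma8 and Psma6 lie far lower in RS, with Psma8 at 29.2 and 37.8 in PS against 8.54 and 6.39 in RS, and Psmb9 and Psmb10, inducible beta genes, lie under 10 throughout.

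Psma8 lost the most. Its fold enrichment was 29.2 and 37.8 in PS and 8.54 and 6.39 in RS, with no overlap (log2 difference −1.63 ± 0.15 SE, limma adjusted p = 3.5e-11). Its RNA and its start were both lower in RS, in cells of different genotype. An intronic site of Psma8 centred 4190 bp from its start in the second RS library and 4767 bp in the first lay the other way, at 5.35 and 4.93 in PS and at 13.4 and 11.6 in RS. Psmb1 went from 30.5 and 39.5 to 17.1 and 17.4 (log2 difference −0.57 ± 0.14, adjusted p = 0.0011), in an interval that also covers the start of Tbp, and this call was lost without the second PS library. Psmd7, a structural partner of Psmd14, went from 28.0 and 28.0 to 17.5 and 12.8 (log2 difference −0.46 ± 0.14, adjusted p = 0.0059), and this call was lost without the first PS library.

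Psma6, described further on, was also called lower. Psmb3 changed by −0.53 ± 0.18, Psma4 by −0.36 ± 0.15 and Psmb5 by −0.35 ± 0.15, and each of these calls was lost without either PS library or without the second RS library, that of Psma4 also without the first RS library and in the fit with the replicate number as a block. Psmd14, whose RNA fell 2.37-fold, stood at 18.9 and 17.0 in PS and 15.1 and 12.2 in RS (log2 difference 0.02 ± 0.16, or −0.38 without centring). Psmc1 went from 15.2 and 15.9 to 17.9 and 10.4 (0.22 ± 0.16, or −0.17 without centring), in an interval at another annotated start 2177 bp upstream; within 1 kb of the start used by the tables only the first RS library had an interval. Psme4 stood at 30.0 and 34.0 in PS and 24.0 and 23.2 in RS (−0.03 ± 0.14, limma adjusted p = 0.89) while its RNA rose.

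Gains were called at Psmd10, Psmd13 and Psmf1, and without centring none of the 3 was called. Psmd10 went from 8.64 and 12.1 to 14.6 and 12.2 (log2 difference 0.75 ± 0.18, limma adjusted p = 0.00061; 0.36 without centring). Psmd13 went from 18.5 and 21.4 to 22.0 and 20.9 (0.50 ± 0.14, adjusted p = 0.0042; 0.10 without centring), it shares its interval with Sirt3, which starts 525 bp away on the other strand, and its call was also lost without the first PS library or the second RS library. In RNA the log2 fold change was −0.54 ± 0.14 for Psmd13, under the fold threshold, and −1.05 ± 0.21 for Sirt3.

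**Figure D4:**
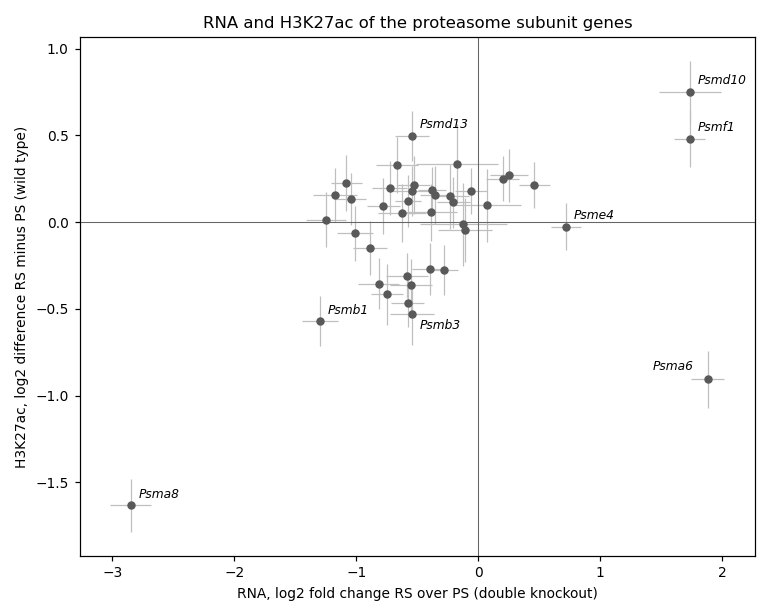
H3K27ac log2 difference RS minus PS in wild-type cells (vertical) against RNA log2 fold change RS over PS in double-knockout cells (horizontal) for each proteasome subunit gene tested in both assays, with standard errors. Psma8 lies low on both axes, Psmd10 and Psmf1 high on both, and Psma6 is the only member called higher in RNA (1.88) and lower in H3K27ac (−0.91).

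Psma6 was the only member called in both assays in opposite directions. At the start used by the RNA tables, fold enrichment fell from 21.4 and 23.0 in PS to 9.36 and 7.55 in RS (log2 difference −0.91 ± 0.16, limma adjusted p = 1.2e-05), and the call held in each of the 9 alternative fits, while RNA rose 3.69-fold. The annotation holds another protein-coding start for Psma6, 14603 bp upstream at chr12:55384222 (GENCODE vM21, GRCm38). It was examined after the values were seen, and it is given as a description. Within 1 kb of it the strongest interval stood at 7.82 and 7.13 in PS and at 17.9 and 13.9 in RS, a centred log2 difference of 1.38, which turns the direction found at the downstream start.

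In RS the upstream region was covered by a single interval of 4696 bp in the first library and by an interval of 2106 bp in the second, and in PS by several intervals of at most 821 bp within 1 kb of the start. The tables assign these intervals to Mir1198, a transcript model on the same strand that spans Psma6 and that held 0 reads in every RNA library. The RNA tables hold a single Psma6 transcript model, so reads from either start were counted together, and which start the RS reads came from was not tested.

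**Figure D5:**
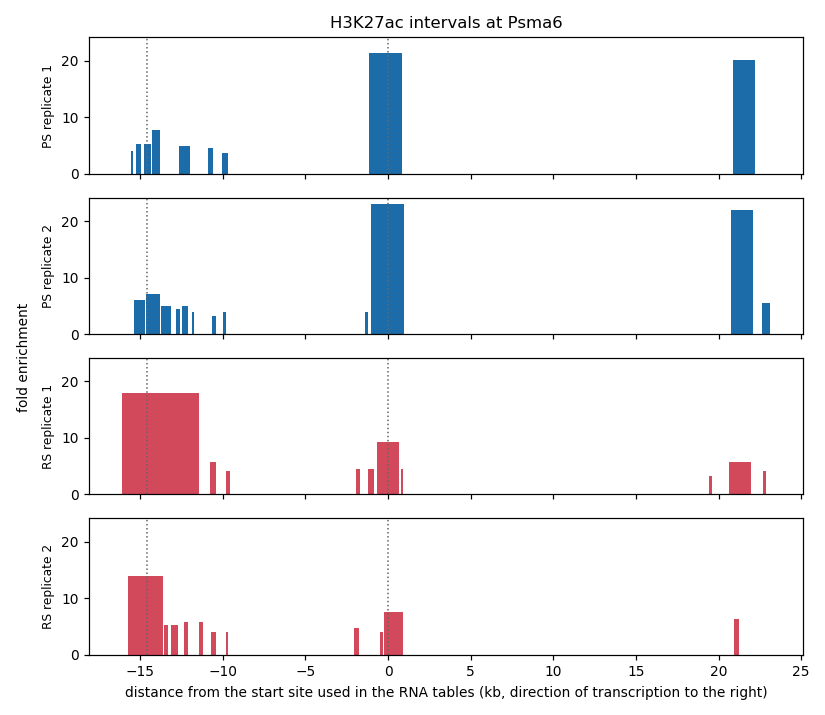
H3K27ac intervals around Psma6 in the 4 libraries, with fold enrichment (vertical) against distance from the start used in the RNA tables (horizontal, kb, transcription to the right) and dotted lines at the annotated starts. The interval at 0 kb is lower in RS (9.36 and 7.55) than in PS (21.4 and 23.0), while the intervals at the start 14603 bp upstream are higher in RS (17.9 and 13.9) than in PS (7.82 and 7.13).

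Psmf1 also had more than one acetylated site. Within 2 kb of its start the strongest interval stood at 11.5 and 15.9 in PS and at 17.1 and 12.2 in RS (log2 difference 0.48 ± 0.16, limma adjusted p = 0.016; 0.09 without centring). That call was lost with a window of 1 kb (0.12) and without the first PS library or the first RS library. The value of the second RS library came from an interval between 1955 and 3432 bp upstream, and the interval over the start itself stood at 6.97 there.

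A protein-coding start of Psmf1 lies 2893 bp upstream in GENCODE vM21, and it too was examined after the values were seen. Its strongest interval within 1 kb stood at 4.53 and 5.48 in PS and at 17.1 and 12.2 in RS, a centred log2 difference of 1.76. In the first RS library this is the same interval of 4803 bp that covers the downstream start. Inside the gene, between 10334 and 13263 bp from its start, intervals reached 6.17 and 6.58 in PS and 19.1 and 14.5 in RS. An interval between 8554 and 11044 bp upstream moved the other way, from 23.9 and 28.0 in PS to 8.54 and 6.97 in RS. Psmf1 thus lay among intervals that differed between stages in both directions.

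Away from the starts, intervals annotated to members were few. There were 26 and 30 in PS and 80 and 31 in RS, at 14, 14, 22 and 14 members. The first RS library also held the most intervals genome-wide, 74919 against 41095 to 49434 in the others. The part of this difference in the number of member intervals was not tested.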

How the data were processed

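RNA and H3K27ac were measured in PS and RS, 2 libraries per stage and assay. For RNA, reads had been placed on mm10 by the authors (STAR 2.4.2a, unique alignments), split over RefSeq isoforms by expectation-maximization, and deposited as estimated counts (whole numbers) and RPKM. For H3K27ac, the authors called peaks per library with MACS2 after Bowtie alignment, and deposited the pileup signal, the fold enrichment ratio and −log10 p and q-values. Rows were summed per gene. Stages were compared with edgeR 4.0.16 (TMM, quasi-likelihood, genes with at least 10 reads in at least 2 samples) and, for H3K27ac, with limma 3.58.1 on log2(1 + fold enrichment) of genes with an interval in all 4 samples. Alternatives were DESeq2 1.42.0, other scalings, filters, windows and replicates left out. The fits were also run on simulated data with 200 changed genes. There edgeR recovered 187 with 14 false calls, and limma on H3K27ac recovered 198 with 14 false calls. Far more genes than that were called in the data, so the simulations do not check the fits under such a shift.

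Replicate numbers are shared between stages, but no source used here ties them to animals. The study calls the replicates of both assays biological. P-values rest on the spread between these samples, with the variance of each gene drawn toward the trend over all genes tested. With 2 samples against 2, an exact permutation test of a single value cannot go below p = 0.33 two-sided. Interval files give no library depth, and a library with no interval says only that none passed the peak caller. Members and gene lists were chosen with earlier results of these data known. Named with values in every sample were the alternative core subunits, activators, inhibitor and Psmd10, and, per role, the members with the largest rise and fall and the highest and lowest mean RPKM; pathway genes were the 3 largest rises and falls, of which some are not reported here; for H3K27ac also members called or lacking an interval. Further members and pathway genes are given by their log2 fold change or to complete a group. Cell type marker lists were read for all 7 types.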

Additional observations from a re-analysis of the deposited data

How the results depend on the processing

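For RNA, the count of 14 members lower in RS ran from 10 to 18 when single libraries were left out, that of 4 higher from 4 to 5, and that of 19 pathway genes from 17 to 20; with no fold threshold 25 members were lower. For H3K27ac, leaving out single libraries gave 3 to 9 lower and 2 to 3 higher, and no centring gave 12 lower and 0 higher. Among members with values given in every sample, those that changed sign at the start the tables use were not called. In RNA these ran, over single libraries left out, from −0.27 to 0.20 (Psma7, positive without the second RS library), from −0.39 to 0.25 (Psmb10, positive at 0.05 without the first PS and at 0.25 without the second RS library), from −0.52 to 0.31 (Psme1, positive at 0.31 without the first PS and at 0.14 without the second RS library) and from −0.16 to 0.37 (Psme2, negative without the second PS library). For H3K27ac without centring, 22 members turned from above to below 0, 0 of them called when centred; those with values given in every sample were Psmb6 (−0.24), Psmc1 (−0.17), Psmc6 (−0.12), Psmd14 (−0.38), Psmd8 (−0.21), Psme1 (−0.059), Psme2 (−0.30) and Psme3 (−0.14); the median of all genes, −0.39, moves by construction. With libraries left out, H3K27ac ranges of the members with values given in every sample that crossed 0 were −0.32 to 0.26 for Psma7, −0.39 to 0.40 for Psmb10, −0.031 to 0.38 for Psmb6, −0.092 to 0.16 for Psmd14, −0.25 to 0.49 for Psme2 and −0.16 to 0.14 for Psme4. At its upstream start, an alternative chosen after seeing the data, Psma6 gave 1.38 in place of −0.91. The cause of these changes was not tested.

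With the replicate number as a block, 14 members were lower and 4 higher in RNA and 19 pathway genes were called; for H3K27ac 6 were lower and 3 higher, and Psma4 kept its value of −0.36 without its call. Same-numbered libraries deviated together with a correlation over genes of 0.23 in RNA and 0.01 in H3K27ac, over a single pair of deviations each, so the numbers are not taken as pairing.

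Low reads limit Psmb8, Psmb9 and Psmb11, for which differences were not testable at the filter used.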
